A study of Homo sapiens with 6 samples.

Results

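The 35 genes described here make heme, move iron or build the red cell membrane, and all 35 have a row among the 58364 rows with values in the deposited table. They were taken by symbol as 10 genes of heme synthesis, 8 of iron handling, 5 of the membrane skeleton with band 3, 9 glycophorin and blood group genes, and 3 other erythroid genes. RNA of CD31+ cells, the endothelial and early blood cells of the culture, was sequenced at day 8 of hematopoietic differentiation of H1, a human embryonic stem cell line. There were 2 libraries of wild-type (WT) cells and 4 libraries labelled MSX2-/-, which are replicates 1 and 2 of the clones that the table calls 1# and 2#. Each of these is a single clone made with CRISPR-Cas9 and a guide to exon 2 of MSX2. The clones came through lentiviral infection, puromycin selection and the picking of colonies grown from single cells. The study's text describes no such steps for the WT cells, so their effects cannot be told apart from those of genotype. It names no treatment of these libraries beyond the differentiation culture. The labels name CD31+ sorting for the MSX2-/- libraries, and the study's text names it for both genotypes.

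Heme is made in a chain of enzymes that starts in the mitochondrion, passes through the cytosol and ends in the mitochondrion, where iron is put into the ring. Red cell precursors use their own form of the first enzyme, ALAS2, import iron through the transferrin receptor and pass it into the mitochondrion through mitoferrin 1, encoded by SLC25A37. Their membrane carries glycophorins, the Rh and Kell proteins and the anion exchanger band 3, tied to a spectrin skeleton through ankyrin and protein 4.2.

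In the libraries labelled MSX2-/-, 5 erythroid genes were several-fold higher, while 7 of the 10 heme synthesis genes passed in no fit of the genotype given here. ALAS2 was 7.09-fold higher as a ratio of mean FPKM (sequenced fragments per kilobase of a transcript and per unit of mapped fragments), RHAG 4.19-fold, KEL 3.89-fold, GYPE 3.59-fold and GYPB 3.17-fold. These 5 genes passed an adjusted p under 0.05 (limma on log2(FPKM + 1), Benjamini-Hochberg over 15895 genes), and 0 of the 35 passed as lower. Before adjustment limma gave a p under 0.05 for 14 as higher and 1, GYPC, as lower, and with the block described next for 17 and 1. For the fits of genotype, such unadjusted counts were not made over all genes, so they have no share to be read against. Of all genes tested, 0.963% passed as higher and 0.321% as lower. With the replicate number as a block in the fit, 13 of the 35 passed as higher and 0 as lower, beside 6.11% higher and 3.74% lower of all genes. The 8 added by the block were UROD, CPOX, SLC25A37, BLVRB, SPTB, ANK1, EPB41 and ICAM4. Of these 8, UROD, BLVRB, EPB41 and ICAM4 did not pass with 3 groups and the block (limma adjusted p = 0.056 to 0.069), and none of the 8 passed with no filter and the block (adjusted p = 0.082 to 0.260). EPB42, SLC4A1 and AHSP had a mean under 0.5 FPKM and were not tested, so counts and medians cover 32 genes. SPTB, RHD and RHCE had WT means of 0.363, 0.183 and 0.319 FPKM and reached the filter only through the MSX2-/- libraries. Counts of higher genes and medians that include them are therefore not independent of the filter.

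The median log2 fold change of these 32 was 0.41, and 25 were above 0. Over all 15895 genes the median was 0.0081, and 51.3% were above 0. All 4 MSX2-/- libraries were above both WT libraries for 17 of the 32 genes and below both for 1, while 14 overlapped. The same was seen for 12.1% and 9.19% of all genes. Each MSX2-/- library set against the WT library of its own replicate number was higher for 19 of the 32 and lower for 3, beside 23.6% and 21.4% of all genes. Taken one by one, the 4 libraries differed from the WT mean by a median over the 32 genes of 0.48 and 0.26 in replicates 1 and 2 of 1#, and of 0.40 and 0.27 in those of 2#. With WT, 1# and 2# fitted as 3 groups, RHAG was the 1 gene that passed, beside 0.0252% of all genes as higher. The labels do not say whether the replicates come from separate cultures, and p-values measure only the spread between these libraries, part of which may be technical. Across the 15895 genes, which are not independent, log2(FPKM + 1) correlated at r = 0.961 and 0.952 between the replicates of 1# and of 2#, and at 0.980 between the clones within each replicate number. The correlation was 0.959 between the WT libraries. Between WT and each clone of the same replicate number it was 0.962 to 0.967, at least as high as between replicates of a clone. An exact permutation test of 2 against 4 libraries has 15 splits and cannot go below p = 0.0667.

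**Figure D1:**
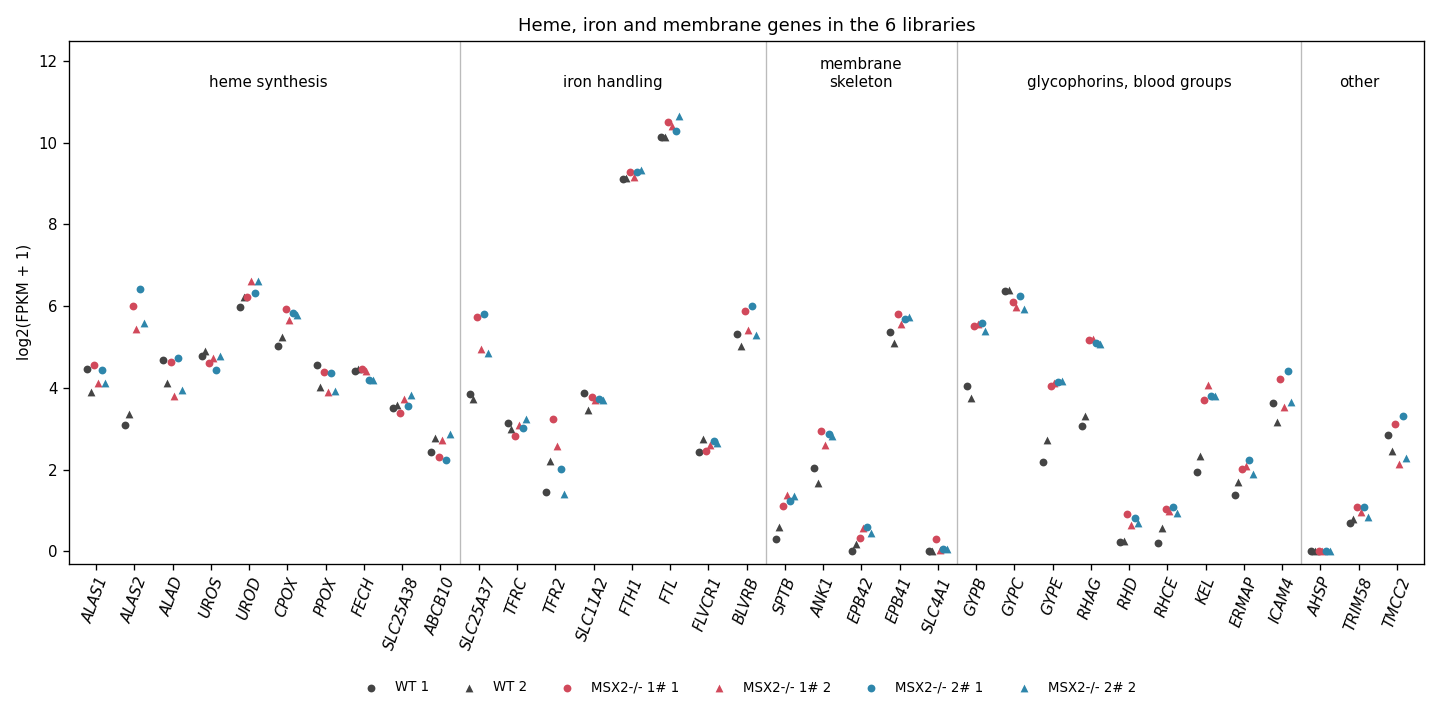
The vertical axis gives log2(FPKM + 1) of the 35 genes on the horizontal axis, in order of their groups, with 1 point per library. Circles are replicate 1 and triangles replicate 2, with WT in grey, 1# in red and 2# in blue. ALAS2, SLC25A37, GYPB, GYPE, RHAG and KEL show the 4 MSX2-/- points clear of both WT points, and AHSP sits at 0 in all 6 libraries.

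The libraries had FPKM sums of 555286 to 617120 and 13366 to 14222 genes at 1 FPKM or more. The table gives no read numbers, so the depth behind a value is unknown, and ratios of low values between libraries put the relative depth at 1.0 to 1.19. PECAM1, which encodes CD31, was at 218 and 258 FPKM in WT and between 186 and 230 FPKM in the MSX2-/- libraries. MSX2 itself was at 3.64 and 1.44 FPKM in WT, at 18.0 and 5.62 FPKM in 1# and at 31.8 and 6.69 FPKM in 2#. Its mRNA was thus higher in the libraries labelled MSX2-/-, with a log2 fold change of 1.99 that passed with the block (SE 0.28, limma adjusted p = 0.011) and not without it (SE 0.69, adjusted p = 0.309). Why the mRNA was higher was not tested. A change made by a guide in an exon need not lower the mRNA, so its level does not check the labels, and the directions given here follow the labels.

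Among the heme synthesis genes, the first enzyme of the erythroid form changed and the shared form did not pass. ALAS2 (chrX:55009055-55031064, minus strand, GRCh38) was at 7.48 and 9.28 FPKM in WT replicates 1 and 2. It was at 63.4 and 42.2 FPKM in replicates 1 and 2 of 1#, and at 84.8 and 47.3 FPKM in those of 2#. All 4 MSX2-/- libraries lay above both WT libraries, and in both clones replicate 1 was the higher of the pair. The means were 8.38 ± 1.28 FPKM (SD, n = 2) and 59.4 ± 19.2 FPKM (SD, n = 4), which gave a log2 fold change of 2.64 (SE 0.29, limma adjusted p = 0.015, and 0.003 with the block). The adjusted p was 0.072 with 3 groups, and it was 0.0538 to 0.142 when any library except replicate 1 of 2# was left out. Its exons share bases with APEX2 on the opposite strand, and 9 others of the 35 genes share exon bases with such a gene. Whether the counting used strand is not given in the sources used here. In bulk RNA, fewer cells of a type and less RNA per cell cannot be told apart. ALAS1, the form that all tissues use, was at 21.1 and 14.0 FPKM in WT and between 16.3 and 22.7 FPKM in the MSX2-/- libraries, with a log2 fold change of 0.12 (limma adjusted p = 0.932). The ratio of ALAS2 to ALAS1 was 0.355 and 0.664 in WT, and it ranged from 2.57 to 4.13 in the MSX2-/- libraries. On the FPKM scale, which is per length, ALAS1 was thus the higher of these forms in WT, and ALAS2 in each library labelled MSX2-/-.

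CPOX, which makes protoporphyrinogen from coproporphyrinogen, was the next largest difference in the pathway. It was at 31.4 and 37.1 FPKM in WT, at 59.7 and 49.2 FPKM in 1#, and at 56.4 and 54.1 FPKM in 2#. The groups did not overlap, and the log2 fold change of 0.67 passed with the block (SE 0.11, limma adjusted p = 0.017) but not without it (SE 0.13, adjusted p = 0.080). UROD, which trims the side chains of uroporphyrinogen, was at 62.0 and 73.3 FPKM in WT, at 73.9 and 96.7 FPKM in 1#, and at 78.5 and 97.3 FPKM in 2#. Its replicate 2 libraries were the higher in each genotype, opposite to ALAS2 in the clones, and its log2 fold change of 0.35 passed with the block (limma adjusted p = 0.026) and not without it (adjusted p = 0.481), nor with 3 groups and the block (adjusted p = 0.060).

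The other 7 genes of heme synthesis did not pass in either fit, with log2 fold changes from -0.20 to 0.12. They were ALAS1, ALAD and UROS, which act on the early precursors, PPOX and FECH, the last enzymes of the chain, SLC25A38, the glycine carrier of the inner mitochondrial membrane, and ABCB10, a transporter of the same membrane. FECH, which inserts iron into the ring, was at 20.2 and 21.2 FPKM in WT, at 20.9 and 20.3 FPKM in 1# and at 17.3 and 17.4 FPKM in 2#. Both libraries of 2# were below both WT libraries, while those of 1# lay between the WT values. In replicate 2, 1# was also below the WT library of its number. Over the 10 heme synthesis genes, 1 passed unblocked and 3 blocked, and the median log2 fold change was 0.008.

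Iron handling showed the largest difference at the mitochondrial importer. SLC25A37 was at 13.3 and 12.2 FPKM in WT, at 52.5 and 29.8 FPKM in 1#, and at 54.7 and 28.0 FPKM in 2#. The clones were alike within each replicate number, and replicate 1 was the higher of each MSX2-/- pair. The means were 12.8 ± 0.767 FPKM (SD, n = 2) and 41.3 ± 14.3 FPKM (SD, n = 4), and the log2 fold change of 1.55 passed with the block (SE 0.17, limma adjusted p = 0.005) and not without it (SE 0.31, adjusted p = 0.086).

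TFRC, the receptor that brings transferrin iron into the cell, showed no such difference. It was at 7.84 and 6.90 FPKM in WT and between 6.04 and 8.50 FPKM in the MSX2-/- libraries, with a log2 fold change of -0.02 (limma adjusted p = 0.992, and 0.955 with the block). The ratio of SLC25A37 to TFRC was 1.70 and 1.77 in WT and ranged from 3.29 to 8.70 in the MSX2-/- libraries. TFR2, a second transferrin receptor, was at 1.72 and 3.66 FPKM in WT, at 8.44 and 4.94 FPKM in 1#, and at 3.07 and 1.64 FPKM in 2#. The 2 clones lay on different sides of the WT library in replicate 2, and the log2 fold change of 0.48 did not pass (SE 0.51, limma adjusted p = 0.846, and 0.610 with the block). SLC11A2, the divalent metal transporter that lets iron out of endosomes, and FLVCR1, a transporter of heme and choline at the cell surface, had log2 fold changes of 0.06 and 0.01 and did not pass.

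BLVRB, a flavin and biliverdin reductase abundant in red cells, was at 39.3 and 31.8 FPKM in WT, at 58.1 and 42.1 FPKM in 1#, and at 63.6 and 38.5 FPKM in 2#. Each MSX2-/- library was above the WT library of its number, although the groups overlapped, and the log2 fold change of 0.47 passed with the block (limma adjusted p = 0.033) and not without it (adjusted p = 0.522). The ferritin chains were the highest of the 35 genes in every library. FTL was at 1127 and 1119 FPKM in WT, at 1443 and 1353 FPKM in 1#, and at 1252 and 1612 FPKM in 2#. FTH1 was at 550.2 and 560 FPKM in WT and between 568 and 647 FPKM in the MSX2-/- libraries. Both had all 4 libraries above both WT libraries, but the log2 fold changes of 0.33 and 0.15 did not pass (limma adjusted p = 0.294 and 0.581, and 0.089 and 0.214 with the block). Stretches of 50 bases that also occur in transcripts of other genes made up 25.0% of FTH1 and 18.3% of FTL, so their values are uncertain where reads were divided between copies. Of the 8 iron genes, 0 passed without the block (limma, 2 at an unadjusted p under 0.05) and 2 with it, and their median log2 fold change was 0.24.

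ALAS2, TFRC, FTH1 and FTL are linked by the iron-responsive element, an RNA hairpin bound by iron regulatory proteins when iron is low. In a 5′ UTR the bound hairpin holds back translation, and in the 3′ UTR of TFRC it protects the mRNA. The loop, a C followed by 5 bases of any kind and CAGTG, with paired arms, was found in 5 of the 35 genes and in 1.48% of 19669 genes with coding transcripts (GENCODE transcripts, GRCh38, sense strand only). The sites of the 4 genes are shown because they mark which of them carry the element at the 5′ end and which at the 3′ end. Capitals mark the CAGTG of the loop. The fifth match was in coding sequence of EPB42.
ALAS2, 5′ UTR, chrX:55030942-55030971, minus strand: cattcgttcgtcctCAGTGcagggcaacag
FTH1, 5′ UTR, chr11:61967575-61967604, minus strand: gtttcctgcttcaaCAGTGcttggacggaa
FTL, 5′ UTR, chr19:48965333-48965362, plus strand: gtctcttgcttcaaCAGTGtttggacggaa
TFRC, 3′ UTR, chr3:196050980-196051009, minus strand: ataattatcggaagCAGTGccttccataat
TFRC, 3′ UTR, chr3:196050464-196050493, minus strand: gtaattatcgggaaCAGTGtttcccataat
TFRC had 4 such sites, of which the first and the last are printed. The pattern asks for 5 paired bases on each side of the loop, so elements with a less regular stem would be missed. Among the 4 genes printed, ALAS2 passed the test and FTH1, FTL and TFRC did not. The libraries measure RNA levels, and translation was not measured.

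**Figure D2:**
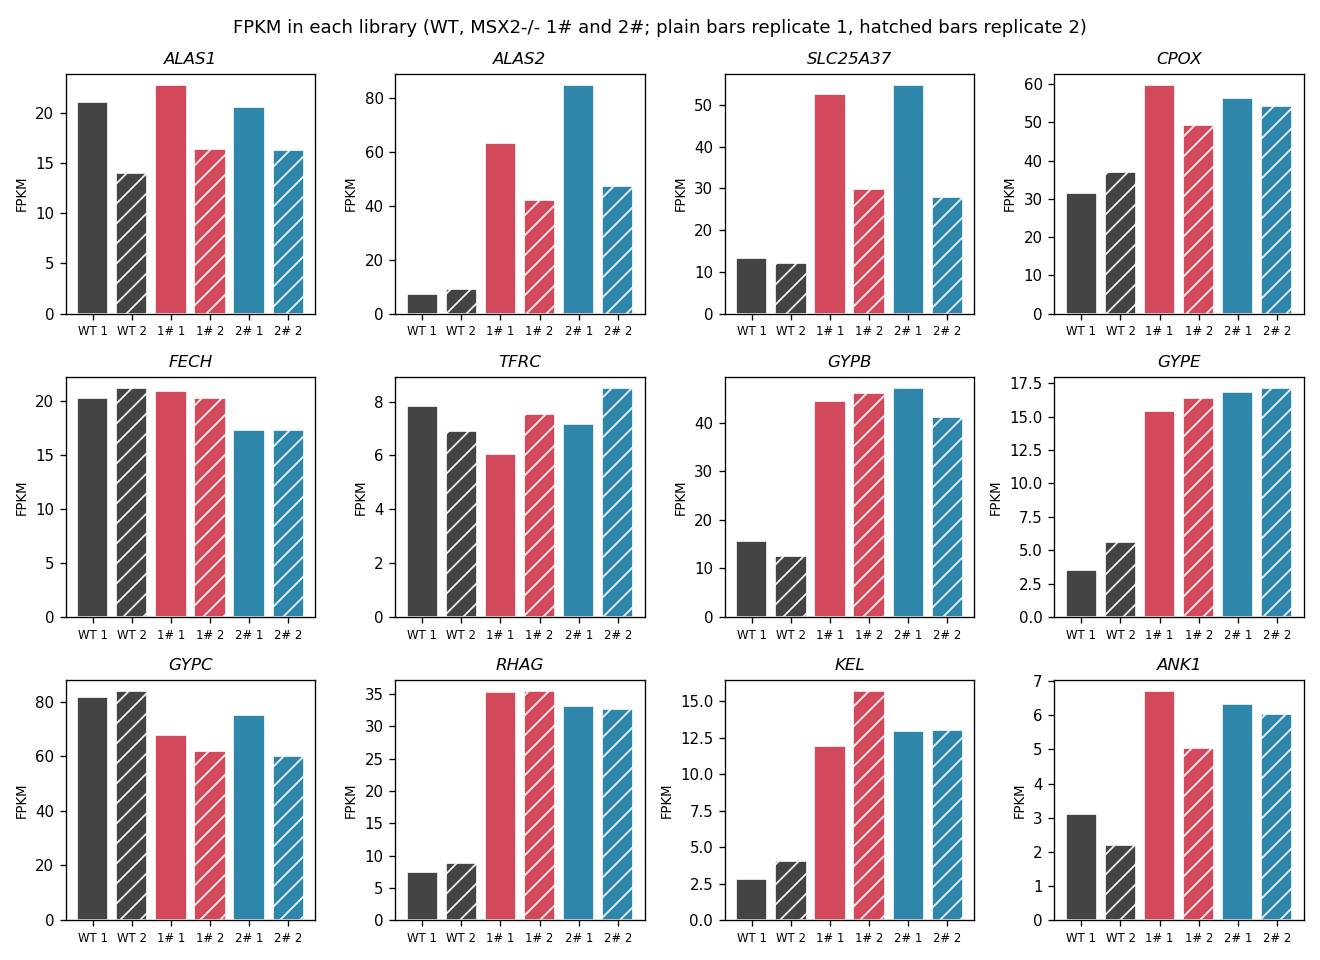
Bars give FPKM (vertical axes, each from 0) of 12 of the genes in the 6 libraries, with WT in grey, 1# in red and 2# in blue, and replicate 2 hatched. ALAS2 and SLC25A37 were higher in replicate 1 than in replicate 2 of each clone, whereas GYPB, GYPE and RHAG stood at about 1 level in the 4 MSX2-/- libraries, and ALAS1, FECH and TFRC overlapped with WT.

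The 3 membrane skeleton genes that could be tested passed as higher with the block, at low to moderate levels. SPTB was among them only because its MSX2-/- libraries lifted its mean over the filter. ANK1, which encodes ankyrin, the link between band 3 and spectrin, was at 3.12 and 2.19 FPKM in WT, at 6.70 and 5.03 FPKM in 1#, and at 6.34 and 6.03 FPKM in 2#. SPTB, the erythroid beta spectrin, was at 0.224 and 0.502 FPKM in WT, at 1.17 and 1.60 FPKM in 1#, and at 1.34 and 1.57 FPKM in 2#. EPB41, protein 4.1, which joins spectrin to actin, was at 40.5 and 33.1 FPKM in WT, at 55.5 and 46.4 FPKM in 1#, and at 50.5 and 52.4 FPKM in 2#. For all 3 the groups did not overlap. ANK1 had a log2 fold change of 0.95 (SE 0.12 with the block) and passed with the block (limma adjusted p = 0.008) but not without it (adjusted p = 0.083). The log2 fold change of SPTB was 0.83 and that of EPB41 was 0.47, and both passed with the block (limma adjusted p = 0.020 and 0.028) but not without it (adjusted p = 0.111 and 0.213). With 3 groups and the block EPB41 did not pass (limma adjusted p = 0.061), and with no filter and the block neither passed (adjusted p = 0.082 and 0.222). On a linear scale SPTB was 3.92-fold higher, since log2(FPKM + 1) understates the change of a gene below 1 FPKM. All 3 are among the genes that share exon bases with a gene on the opposite strand.

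The 2 other genes of this group were too low to test. EPB42, protein 4.2, was listed at practically 0 and at 0.126 FPKM in WT, at 0.249 and 0.486 FPKM in 1#, and at 0.512 and 0.363 FPKM in 2#. SLC4A1, band 3 itself, was at 0.0134 FPKM in WT replicate 1 and listed at 0 in WT replicate 2, and it ranged from 0.0279 to 0.241 FPKM in the MSX2-/- libraries. The anion exchanger that the skeleton is anchored to was thus listed at under 1 FPKM in every library, while its partner ankyrin was at 2.19 FPKM or more.

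Of the 9 glycophorin and blood group genes, 4 passed in the fit with no block and 5 in the blocked fit, with a median log2 fold change of 0.62. RHAG, the Rh-associated glycoprotein and ammonia channel that the Rh antigens need to reach the surface (chr6:49605158-49636884, minus strand, GRCh38), was at 7.45 and 8.87 FPKM in WT. It was at 35.4 FPKM in both libraries of 1#, and at 33.2 and 32.7 FPKM in 2#. The 4 MSX2-/- libraries lay within a narrow band far above both WT libraries. The log2 fold change was 1.94 (SE 0.13, limma adjusted p = 0.005), and with the block the adjusted p was 0.001. RHAG passed in each alternative fit of genotype that kept all libraries, and in those that left out 1 MSX2-/- library. With 3 groups its limma adjusted p was 0.0499, just under the threshold.

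KEL, the Kell blood group protein and an endopeptidase (chr7:142941114-142962681, minus strand, GRCh38), was at 2.84 and 4.05 FPKM in WT, at 11.9 and 15.7 FPKM in 1#, and at 13.0 FPKM in both libraries of 2#. The lowest of the 4 was above the higher WT library, and the log2 fold change was 1.70 (SE 0.18, limma adjusted p = 0.015, and 0.002 with the block). The adjusted p was 0.073 with 3 groups, and 0.0547 to 0.110 when any library except WT replicate 2 was left out.

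GYPB and GYPE are neighbours on chromosome 4 that arose by duplication, and GYPB carries the S and s antigens. GYPB (chr4:143996104-144019345, minus strand, GRCh38) was at 15.6 and 12.6 FPKM in WT, at 44.5 and 46.2 FPKM in 1#, and at 47.1 and 41.2 FPKM in 2#. GYPE (chr4:143870867-143905563, minus strand, GRCh38) was at 3.53 and 5.63 FPKM in WT, at 15.4 and 16.4 FPKM in 1#, and at 16.8 and 17.1 FPKM in 2#. Neither gene overlapped between the groups. The log2 fold change of GYPB was 1.60 (SE 0.13, limma adjusted p = 0.010, and 0.001 with the block), and that of GYPE was 1.67 (SE 0.18, limma adjusted p = 0.016, and 0.002 with the block). With 3 groups the adjusted p was 0.062 for GYPB and 0.075 for GYPE. Without 1 library it was 0.0581 and 0.0569 for GYPB when replicates 1 and 2 of 1# were left out, and 0.0581 to 0.0851 for GYPE when any library except WT replicate 2 was left out.

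The reads of these paralogs cannot be fully separated. Of the stretches of 50 bases in GYPB transcripts, 15.4% also occur in transcripts of other genes, 2.71% in those of GYPE. The first 90 coding bases of the annotated transcripts are printed to show how close they are. GYPE differed from GYPB at 4 of them, A38G, T59C, A71G and G72T, counted from 1 at the A of the start codon with the base of GYPB first. Capitals mark the differing bases.
GYPB: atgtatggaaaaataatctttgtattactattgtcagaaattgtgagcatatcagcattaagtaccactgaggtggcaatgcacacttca
GYPE: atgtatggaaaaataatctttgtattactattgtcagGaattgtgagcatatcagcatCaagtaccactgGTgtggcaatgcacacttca
The ratio of GYPB to GYPE was 4.43 and 2.24 in WT and ranged from 2.40 to 2.89 in the MSX2-/- libraries. How the authors' counting divided shared reads is not given in the sources used here, so the values of both genes are uncertain.

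GYPC, the glycophorin that binds protein 4.1 and is made in many tissues, was the 1 gene of the 32 with all 4 MSX2-/- libraries below both WT libraries. It was at 81.7 and 83.7 FPKM in WT, at 67.7 and 62.0 FPKM in 1#, and at 75.2 and 60.1 FPKM in 2#. The log2 fold change of -0.32 did not pass (SE 0.12, limma adjusted p = 0.374, and 0.073 with the block). It was the highest gene of its group in every library, and the ratio of RHAG to GYPC was 0.0912 and 0.106 in WT and ranged from 0.441 to 0.571 in the MSX2-/- libraries.

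ICAM4, the Landsteiner-Wiener antigen and an adhesion protein, was at 11.5 and 8.00 FPKM in WT, at 17.7 and 10.5 FPKM in 1#, and at 20.5 and 11.5 FPKM in 2#. Replicate 1 was higher in each genotype, the groups overlapped, and the log2 fold change of 0.55 passed with the block (SE 0.11, limma adjusted p = 0.034) and not without it (SE 0.30, adjusted p = 0.581). RHD and RHCE, which encode the D and the CcEe antigens, were low. RHD was at 0.176 and 0.190 FPKM in WT and between 0.558 and 0.886 FPKM in the MSX2-/- libraries, and RHCE was at 0.156 and 0.482 FPKM in WT and between 0.909 and 1.14 FPKM. Neither overlapped between the groups, and the log2 fold changes of 0.52 and 0.62 did not pass (limma adjusted p = 0.291 and 0.228, and 0.096 and 0.077 with the block). ERMAP, which carries the Scianna antigens, was at 1.60 and 2.25 FPKM in WT and between 2.73 and 3.73 FPKM in the MSX2-/- libraries, and its log2 fold change of 0.52 did not pass (limma adjusted p = 0.333, and 0.108 with the block).

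RHD and RHCE also share sequence. Of the stretches of 50 bases in RHD transcripts, 14.7% occur in RHCE, and 20.8% of those in RHCE occur in RHD. Over the first 90 coding bases of the reference they differed by G48C, with the base of RHD first, marked by a capital.
RHD: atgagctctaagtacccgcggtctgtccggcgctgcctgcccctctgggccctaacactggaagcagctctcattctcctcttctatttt
RHCE: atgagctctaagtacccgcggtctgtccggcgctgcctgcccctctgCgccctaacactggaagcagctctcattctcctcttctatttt

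Of the 3 other erythroid genes, AHSP, the chaperone of free alpha globin, was listed at 0 in all 6 libraries. TRIM58, a ubiquitin ligase of late erythroblasts, was at 0.617 and 0.731 FPKM in WT and between 0.798 and 1.13 FPKM in the MSX2-/- libraries, and its log2 fold change of 0.25 did not pass (limma adjusted p = 0.688, and 0.354 with the block). TMCC2, a membrane protein of the endoplasmic reticulum, was at 6.20 and 4.44 FPKM in WT, at 7.74 and 3.42 FPKM in 1#, and at 8.95 and 3.85 FPKM in 2#. It followed the replicate number in each genotype, and its log2 fold change of 0.07 did not pass (limma adjusted p = 0.982, and 0.830 with the block).

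**Figure D3:**
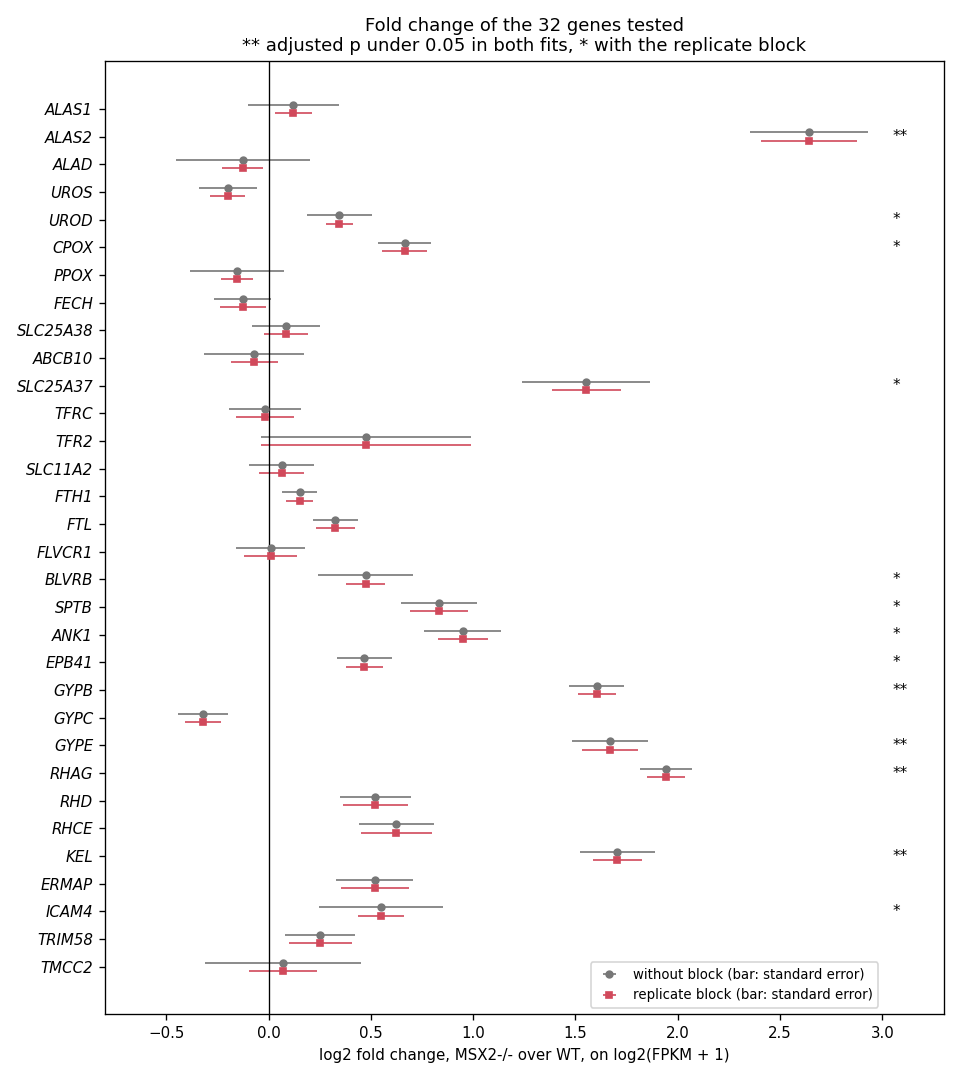
Points give the log2 fold change of MSX2-/- over WT on log2(FPKM + 1) (horizontal axis) for the 32 genes tested (vertical axis), with bars of 1 standard error, without the replicate block in grey and with it in red. The estimate is the same in both fits and the bars are mostly narrower with the block, where 13 genes passed in place of 5.

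For some of these genes the measured difference from WT was larger in 1 replicate number than in the other. Within replicate 1, the mean of both MSX2-/- libraries minus WT was 3.13 for ALAS2 on the log2(FPKM + 1) scale, and within replicate 2 it was 2.15. For SLC25A37 the differences were 1.93 and 1.18, for CPOX 0.87 and 0.47, and for GYPE 1.92 and 1.42. GYPB went the other way, with 1.49 and 1.72, and ANK1 had 0.87 and 1.03. RHAG and KEL, with 2.06 and 1.83 and with 1.81 and 1.60, also had differences of the same sign in both numbers. The difference between replicate numbers was tested as an interaction in limma, chosen after these values were seen, and 0 of the 32 genes passed, beside 0.0189% of all genes. Before adjustment 5 of the 32 and 1817 of all genes had a p under 0.05, and the lowest adjusted p of the 32 was 0.314, for SLC25A37. For ALAS2 the interaction was -0.98 (SE 0.28, limma adjusted p = 0.388). In this fit each number has 1 WT library, so the spread within a number came from the 2 clones alone. A difference in size between the replicate numbers was thus not shown. TFR2 and TMCC2, with 1.19 and -0.23 and with 0.37 and -0.23, had differences of opposite sign in the 2 numbers.

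**Figure D4:**
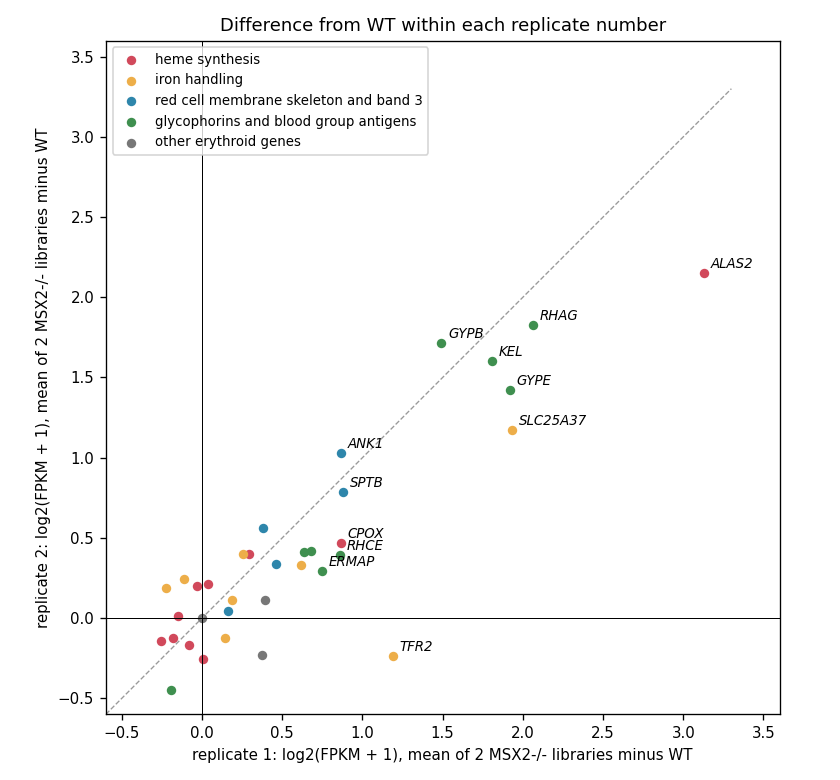
Each point is 1 of the 35 genes, with its difference in log2(FPKM + 1) between the mean of both MSX2-/- libraries and WT in replicate 1 (horizontal axis) and in replicate 2 (vertical axis), and the dashed line marks equal differences. ALAS2 at 3.13 and 2.15 and SLC25A37 at 1.93 and 1.18 lie under the line, GYPB at 1.49 and 1.72 lies above it, and TFR2 falls below 0 in replicate 2.

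Clone 2# was compared with 1# in the fit of 3 groups with the block, and 0 of the 32 genes passed, beside 0.0% of all genes. Before adjustment, limma gave a p under 0.05 for 1 of the 32 and for 530 of all genes. ALAS2 was at a mean of 52.8 FPKM in 1# and 66.0 FPKM in 2#, and RHAG at 35.4 and 32.9 FPKM. The largest difference between clones was that of TFR2, at 6.69 FPKM in 1# and 2.36 FPKM in 2#, and it did not pass.

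Other genes of the same pathways were taken from lists. Of 39 other genes of heme and iron metabolism, 35 were tested, 1 passed as higher without the block, and 5 passed as higher and 1 as lower with it. The median log2 fold change of these 35 was 0.12. FDXR, the reductase that feeds electrons to mitochondrial ferredoxin, rose from 30.0 and 30.3 FPKM in WT to between 44.9 and 48.0 FPKM, with a log2 fold change of 0.62 (limma adjusted p = 0.0496, and 0.005 with the block). With 3 groups and no block, none of this list passed (lowest limma adjusted p = 0.171). With the block TMEM14C, a mitochondrial protein that developing red cells need for heme synthesis, also passed, at a log2 fold change of 0.49 (limma adjusted p = 0.008), and SNX3, a sorting protein of the transferrin receptor, passed as lower at -0.32 (adjusted p = 0.019).

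Of 29 other red cell membrane and blood group genes, 23 were tested, 3 passed as higher without the block, and 10 passed as higher and 1 as lower with it, with a median log2 fold change of 0.47. Those that passed in both fits were CD44, the hyaluronan receptor of the Indian blood group, at 1.75 (limma adjusted p = 0.017), CA2, a carbonic anhydrase of the red cell, at 1.52 (adjusted p = 0.047), and SLC2A1, the glucose transporter of its membrane, at 1.15 (adjusted p = 0.047). With 3 groups and no block, none of this list passed (lowest limma adjusted p = 0.075). CD44, SLC2A1 and CA2 are not made by erythroid cells alone. ADD1, an adducin of the skeleton, was the gene that passed as lower with the block, at a log2 fold change of -0.26 (limma adjusted p = 0.046).

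Erythroid transcription factors were also measured. Of 15 factors with EPOR, 14 were tested, and 3 passed without the block and 7 in the blocked fit, all as higher. With 3 groups and no block, none of them passed (lowest limma adjusted p = 0.068). The median log2 fold change was 0.55, with 9 of the 14 positive and 5 negative. Every MSX2-/- library lay above both WT libraries for 7 of the 14 and below both for 1, while 6 overlapped. Set against the WT library of its own replicate number, every MSX2-/- library was higher for 8 and lower for 3. With the block, limma gave an unadjusted p under 0.05 for 8 as higher and 1 as lower. GATA1 was at 7.68 and 8.90 FPKM in WT and between 17.5 and 20.8 FPKM in the MSX2-/- libraries, KLF1 at 9.78 and 12.3 FPKM and between 30.4 and 55.8 FPKM, and NFE2 at 11.2 and 12.2 FPKM and between 30.3 and 35.6 FPKM. KLF1 was highest in replicate 2 of each clone, where ALAS2 was lower. Of 10 globin genes, 9 were tested and 0 passed in either limma fit (1 and 5 at an unadjusted p under 0.05), HBM was listed at 0 in all libraries, and the summed level was 80.1 to 107 FPKM in WT and 93.7 to 447 FPKM in the MSX2-/- libraries. HBE1, the embryonic beta-like globin, was at 36.6 and 24.4 FPKM in WT, and at 125 and 164 FPKM in replicate 1 but 36.5 and 35.9 FPKM in replicate 2 of the clones.

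Markers of other cells in a CD31+ gate also differed between the groups, and their part in the results above was not tested. Of 12 endothelial markers, 3 passed as lower without the block and 8 with it, and their sum was 3285 to 3947 FPKM in WT and 2105 to 3280 FPKM in the MSX2-/- libraries. The log2 fold change was below 0 for 11 of the 12. It was above 0 for 1, whose MSX2-/- libraries all lay above both WT libraries. CLDN5, a tight junction protein, fell by 2.28 on the log2 scale (limma adjusted p = 0.012). With 3 groups and no block, none of the 12 passed (lowest limma adjusted p = 0.063). Of 10 mesenchymal markers, 8 were tested, 2 passed as higher without the block and 4 with it, and their sum was 279 to 337 FPKM in WT and 500.3 to 575 FPKM in the MSX2-/- libraries. None of these passed with 3 groups and no block (lowest limma adjusted p = 0.072). Of 9 megakaryocyte markers, 7 were tested, 0 passed without the block (limma, 2 at an unadjusted p under 0.05) and 2 as higher with it, with sums of 45.7 to 71.4 FPKM and 69.1 to 92.5 FPKM. Of 10 myeloid markers, 8 were tested, 0 passed without the block (limma, 1 at an unadjusted p under 0.05) and 3 as higher with it, with sums of 37.4 to 64.6 FPKM and 59.1 to 87.1 FPKM, and ELANE was listed at 0 in all libraries. Of 7 pluripotency markers, 5 were tested, 0 passed without the block (limma, 0 at an unadjusted p under 0.05) and 1 as higher with it, with sums of 93.7 to 111 FPKM and 112 to 134 FPKM. Of 7 hepatic and yolk sac endoderm markers, 0 passed in either limma fit (0 and 1 at an unadjusted p under 0.05), and the sums were 51.1 to 77.3 FPKM and 13.4 to 243 FPKM. Log2 fold changes were above and below 0 for 6 and 2 of the mesenchymal markers tested, and for 5 and 2 of the megakaryocyte markers. They were so for 6 and 2 of the myeloid, 4 and 1 of the pluripotency and 4 and 3 of the endoderm markers.

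The sequences before the transcription starts were read for 28 of the 35 genes, which had 44 windows in the RefSeq promoter table (GRCh38.p14). AGATAA and AGATAG, and these with T as the first base, are motifs that GATA factors bind, and they were searched on both strands in windows of 300 bases around each start. At least 1 was in 52.3% of the 44 windows, beside 25.0% of all 35116 windows, and in 18 of the 28 genes (64.3%), beside 29.1% of all symbols. CCNCNCCC, a pattern bound by KLF factors, was in 79.5% of the windows and 56.2% of all windows. Of the 13 genes that passed with the block, 11 had a window and 9 of these held a GATA motif, and of the 19 that were tested and did not pass, 16 had a window and 8 held one. CCNCNCCC was in 8 of the 11 and in 15 of the 16. Genes with several windows had more chances of a match, and a match is a description of the letters, not of binding.

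The 160 bases before the start are printed for the 5 genes that passed in both fits and for SPTB, as examples that each hold a GATA motif there. CPOX, which also passed with the block, holds one there too and is not printed. So do ALAD, PPOX, SLC11A2, GYPC, RHD, RHCE, ERMAP and TMCC2, which did not pass. Whether the motifs bear on the levels was not tested. Capitals mark the GATA motifs and CCNCNCCC on either strand, and each sequence is read in the direction of its gene.
ALAS2, chrX:55030978-55031137, minus strand: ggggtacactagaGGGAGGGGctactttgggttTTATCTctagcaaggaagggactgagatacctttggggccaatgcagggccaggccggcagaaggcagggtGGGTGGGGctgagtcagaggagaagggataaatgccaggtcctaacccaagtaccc
RHAG, chr6:49636840-49636999, minus strand: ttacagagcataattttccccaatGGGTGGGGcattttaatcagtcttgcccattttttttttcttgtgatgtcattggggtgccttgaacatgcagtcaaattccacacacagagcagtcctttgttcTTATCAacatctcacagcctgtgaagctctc
KEL, chr7:142962364-142962523, minus strand: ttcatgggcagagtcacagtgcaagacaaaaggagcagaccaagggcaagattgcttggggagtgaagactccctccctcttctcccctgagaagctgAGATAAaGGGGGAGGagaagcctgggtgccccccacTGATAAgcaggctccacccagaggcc
GYPB, chr4:144019346-144019505, minus strand: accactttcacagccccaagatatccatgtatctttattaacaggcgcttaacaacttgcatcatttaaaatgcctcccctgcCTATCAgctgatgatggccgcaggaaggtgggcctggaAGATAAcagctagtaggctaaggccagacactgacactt
GYPE, chr4:143905560-143905719, minus strand: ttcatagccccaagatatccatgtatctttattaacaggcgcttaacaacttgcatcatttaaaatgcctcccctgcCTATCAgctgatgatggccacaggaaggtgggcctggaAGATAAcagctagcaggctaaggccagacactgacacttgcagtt
SPTB, chr14:64879908-64880067, minus strand: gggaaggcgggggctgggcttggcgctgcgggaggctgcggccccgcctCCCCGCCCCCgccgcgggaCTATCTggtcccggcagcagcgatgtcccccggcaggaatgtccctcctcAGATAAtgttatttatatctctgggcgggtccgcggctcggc
Counted from the start of transcription, the first base of the GATA motif was at -127 in ALAS2 and at -31 in RHAG. KEL had motifs at -62 and -26, SPTB at -92 and -42, GYPB at -77 and -39, and GYPE at -83 and -45. The windows of GYPB and GYPE hold nearly the same letters, so their motifs are not independent of each other. The same holds for RHD and RHCE, which did not pass and each have a GATA motif at -76. GYPB has a second window in the table, whose start lies 35 bases away.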

How the data were processed

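The data are RNA-seq of 2 WT and 4 MSX2-/- libraries of CD31+ cells at day 8. The authors deposited 1 table of FPKM values, not rounded and with no counts, with 58364 rows of values. Each library has its own column, so no replicates were pooled. The submitters' processing notes list hg19, BWA, Bowtie and RSEM, and the series text names TopHat with Cufflinks. The table ends in a line of headings of the kind Cufflinks writes. Versions, the annotation and the use of strand are not given in the sources used here. The growth protocol also speaks of HAND1 overexpression, which the study's text does not. FPKM scales each library by its mapped fragments, so a change in a few abundant genes shifts all others.

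The 35 genes were found by symbol, and each stood on 1 row. The members and lists were chosen with earlier results of these data known. All 35 are described, and other genes of a list are named where they passed a fit, at most 4 per list and direction. Results of withheld genes are not reported here, and the lists leave them out. PECAM1, HBE1, HBM and ELANE were named after their values were seen.

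Each fit used limma (version 3.58.1, R 4.3.3) on log2(FPKM + 1), with moderation by empirical Bayes along a mean-variance trend, for 15895 genes whose mean reached 0.5 FPKM, two-sided, with Benjamini-Hochberg adjustment over these genes and a threshold of 0.05. Fold changes on this scale understate those of low genes. The main fit compared 4 libraries with 2, with no block. Replicate numbers come from the labels and column names, and the labels give each number a set letter. Differences between replicates 2 and 1 correlated across genes, which are not independent, by r = 0.508 between WT and 1#, 0.540 between WT and 2# and 0.636 between 1# and 2#, so the numbers were taken to pair the libraries, and the blocked value is given where a call changed. The clone numbers of the labels could not be tied to 1# and 2#, and the column names were used. The fits were checked on simulated data with known changes. Alternatives were the block, a pseudocount of 0.1, no filter, a filter at 1 FPKM, 3 groups, rescaled libraries, no trend and leaving out each library.

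Positions and the iron-responsive elements were read from GENCODE on GRCh38, matched by symbol, and promoters from RefSeq on GRCh38.p14. The table itself gives no coordinates.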

Additional observations from a re-analysis of the deposited data

Results flagged for a closer look

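SLC4A1, the gene of band 3, was listed at 0.241 FPKM in replicate 1 of 1#, while the other MSX2-/- libraries lay between 0.0279 and 0.0380 FPKM. It stood apart from the rest of its group by Dixon's test, which marks about 1 in 20 groups by chance, and 34 of the 35 genes were examined. All values of this gene were under 1 FPKM, and it was not tested between the groups.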

How the results depend on the processing

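No fold change of a gene with a call reversed its sign in the alternatives run. With the replicate block, 971 genes passed as higher and 595 as lower, beside 153 and 51 without it, and 13 of the 35 passed in place of 5. Added after seeing the data, the block gave 639, 364 and 9 with 3 groups, 72, 81 and 3 (RHAG, GYPB and KEL) with no filter, 951, 668 and 13 with rescaled libraries, and 1088, 615 and 13 with a pseudocount of 0.1, each as higher, lower and members. Without the block, no filter gave 38 higher genes, 60 lower genes and 2 members (GYPB and RHAG), 3 groups gave 4 higher, 2 lower and 1 member, and no trend gave 33 lower. Leaving out each library in turn gave 7 to 51 higher genes, 4 to 25 lower genes and 1 to 4 members, with fewer libraries in each fit, and the median log2 fold change of the members was 0.32 to 0.39. RHAG passed in all 6 of these, GYPB in 4, and ALAS2, GYPE and KEL in 1 each. For ALAS2 the adjusted p was 0.142 without WT replicate 1, 0.0766 without WT replicate 2, 0.0748 and 0.0538 without replicates 1 and 2 of 1#, and 0.0609 without replicate 2 of 2#. For the clones, a pseudocount of 0.1 gave 1 gene in place of 0, and it was not among the 35. The causes of these differences were not tested. Depth is unknown, so values near 0, as of SLC4A1 and EPB42, have no interval.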
